A study of Mus musculus with 36 samples.

Results

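The cytosolic ribosomal protein genes are the genes that encode the protein subunits of the ribosome outside mitochondria. They were taken here as the protein-coding genes whose mouse symbol is Rpl or Rps followed by a number, with or without a final a, l or x, together with Rpsa, Rplp0, Rplp1 and Rplp2, and with at least 10 counts in every library. Of 51912 genes in the count tables, 80 matched the symbols and 78 also met the count minimum, 31 of the small subunit and 47 of the large subunit. The genes left out were Rpl10l, with 0 to 17 counts per library, and Rpl39l, with 2 to 23, both paralogs known from testis. The genes just inside were Rps29, with 37 to 91 counts, and Rps27, with 100 to 234. Both genes named as markers of the group, Rpl3 and its muscle paralog Rpl3l, were counted in all 36 libraries.

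RNA was sequenced from the tibialis anterior (TA), a fast muscle, and the soleus, a slow muscle, of 3-month-old male mice on a C57BL/6 background. WT mice were compared with homozygous ∆Ig3-MuSK mice, which carry a CRISPR-Cas9 germline deletion of the exons for the third immunoglobulin domain (Ig3) of MuSK, the BMP-binding part of this muscle receptor kinase. Each of the 4 groups, the TA of either genotype and the soleus of either genotype, held 9 libraries of whole muscle, so every cell of the muscle contributed RNA, and the deletion was present in all cells. In such bulk samples, fewer cells of a type and less RNA per cell cannot be told apart.

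A ribosome joins a small subunit, which reads the mRNA, to a large subunit, which forms the peptide bonds. Both are built from ribosomal RNA and roughly equal amounts of each ribosomal protein. Most mRNAs for these proteins begin with a run of pyrimidines through which mTORC1 controls their translation. Rpl3 lies near the peptidyl transferase centre, and in striated muscle its paralog Rpl3l can take its place in the ribosome.

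Ribosomal protein genes have many near-identical retrocopies in the mouse genome, and reads can be assigned to the gene or to a copy. Near copies were taken as annotated pseudogenes, and protein-coding genes outside the lists, whose transcripts matched a ribosomal protein transcript at 90% identity or more over at least 50% of their length. There were 1023 of them, 1009 annotated as pseudogenes and 14 as protein-coding, and 76 of the 78 genes had at least 1. Rpl3l had 0. The counts on the 78 genes made up 0.429% to 0.605% of a library, and the counts on their near copies made up 1.08% to 1.69%. The own share, meaning the counts on a gene as a percent of those on the gene and its near copies, had a median of 16.3% over the 78 genes and ran from 1.28% for Rpl9 to 100% for Rpl3l. It was under 20% in 44 genes and at least 80% in 10, Rpl22, Rpl32, Rpl3l, Rplp2, Rps21 and Rps27l among them. Each comparison is therefore given with the counts on the genes themselves and with the near copies added.

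Promoter sequence is shown for the genes that passed the test between muscles in both genotypes, with and without near copies, where RefSeq (GRCm38.p6) held a start site. Each line runs 5′ to 3′ on the strand of the gene, from 60 bases before the start site to 25 bases from it. Capitals mark the first run of at least 5 pyrimidines that begins with C within 20 bases of the start. Such letters are expected of a terminal oligopyrimidine start. Later runs of this kind, as in Rps6 and Rps27l, are left in lower case.
Rps13 (higher in soleus, chr7:116334166-116334250, minus strand): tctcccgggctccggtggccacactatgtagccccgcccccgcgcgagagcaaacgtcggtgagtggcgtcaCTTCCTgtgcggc
Rps6 (higher in soleus, chr4:86857343-86857427, minus strand): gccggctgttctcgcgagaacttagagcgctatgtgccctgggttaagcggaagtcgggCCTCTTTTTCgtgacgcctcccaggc
Rpl6 (higher in soleus, chr5:121204441-121204525, plus strand): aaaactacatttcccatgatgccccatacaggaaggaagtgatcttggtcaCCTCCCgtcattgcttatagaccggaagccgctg
Rpl23 (higher in soleus, chr11:97782415-97782499, minus strand): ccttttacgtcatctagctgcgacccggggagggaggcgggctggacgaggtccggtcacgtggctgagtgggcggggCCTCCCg
Rps4x (higher in soleus, chrX:102189367-102189451, minus strand): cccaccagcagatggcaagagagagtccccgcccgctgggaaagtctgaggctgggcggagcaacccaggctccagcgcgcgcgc
Rpl3l (lower in soleus, chr17:24727766-24727850, plus strand): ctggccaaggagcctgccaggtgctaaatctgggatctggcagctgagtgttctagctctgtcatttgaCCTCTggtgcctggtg
Rps27l (lower in soleus, chr9:66946026-66946110, plus strand): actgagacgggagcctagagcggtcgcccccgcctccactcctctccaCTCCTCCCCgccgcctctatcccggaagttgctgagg
The longest marked run was that of Rps6, with 10 bases, followed by that of Rps27l, with 9, and Rps4x had none in this window. Runs of this kind were in 48.3% of 27025 promoters, so their presence does not single out these genes. The letters CCGGAAG, searched on both strands of the 300 bases around each start, were in Rpl6, Rps6 and Rps27l, against 9.14% of all promoters. The letters AAGATGG, whose first bases can overlap the end of CCGGAAG, were in none of these 7 promoters, against 6.46% of all. The letters GGGCGG were in Rpl23, Rps13, Rps4x and Rps27l, against 35.9% of all. RefSeq starts were found for 58 of the 78 genes, so no share over the group is given.

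Levels are given as CPM (read counts put on one library size), scaled over the 36 libraries with TMM factors, and are compared between genes only per kilobase of exon. Per kilobase, the median of the 78 genes was 13.9 CPM. The highest mean level was that of Rplp1, with 400 CPM per kilobase. Rpl3l and Rplp0, the base of the ribosomal stalk, followed with 235 CPM per kilobase each. The lowest were Rpl9, with 1.33, Rps29, with 1.83, and Rpl36a, with 2.37 CPM per kilobase. Rpl9, Rps29 and Rpl36a had own shares of 1.28%, 1.36% and 5.93%, so most reads that match these genes were counted on copies.

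Total counts ranged from 43492062 to 78660422 per library. The gene-level count of Musk does not check the deletion, since the other exons remain, and the level of Musk in the TA was 2.86 to 5.58 CPM in WT and 2.62 to 4.01 in ∆Ig3-MuSK, and in the soleus 12.5 to 18.4 in WT and 8.07 to 17.5 in ∆Ig3-MuSK. The muscles matched their labels by fiber markers, with a summed level of 4 slow-fiber genes of 7.74 to 64.1 CPM in the TA libraries and 10561 to 16363 in the soleus libraries. Some libraries stood apart. The ribosomal protein genes lay above the group median, by the median over genes, by 0.50 on the log2 scale in WT TA replicate 5, by 0.39 in WT TA replicate 3, by 0.32 in ∆Ig3-MuSK TA replicate 3, by 0.23 in ∆Ig3-MuSK soleus replicate 2 and by 0.17 in WT soleus replicate 1. Other protein-coding genes with under 1000 bases of exon deviated in the same direction, by up to 0.39, and genes with over 4 kb of exon were lower, by up to 0.13. Counts and medians over the group are given with and without these libraries, all of which lay above their group. Below the group median, WT TA replicates 1 and 9 lay at -0.16 and -0.15 and ∆Ig3-MuSK soleus replicate 5 at -0.13. No fit left these low libraries out, so libraries were removed on the high side only. The counts of each muscle came in a separate table, so a difference between muscles cannot be told apart from a difference between the processing of the tables.

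**Figure D1:**
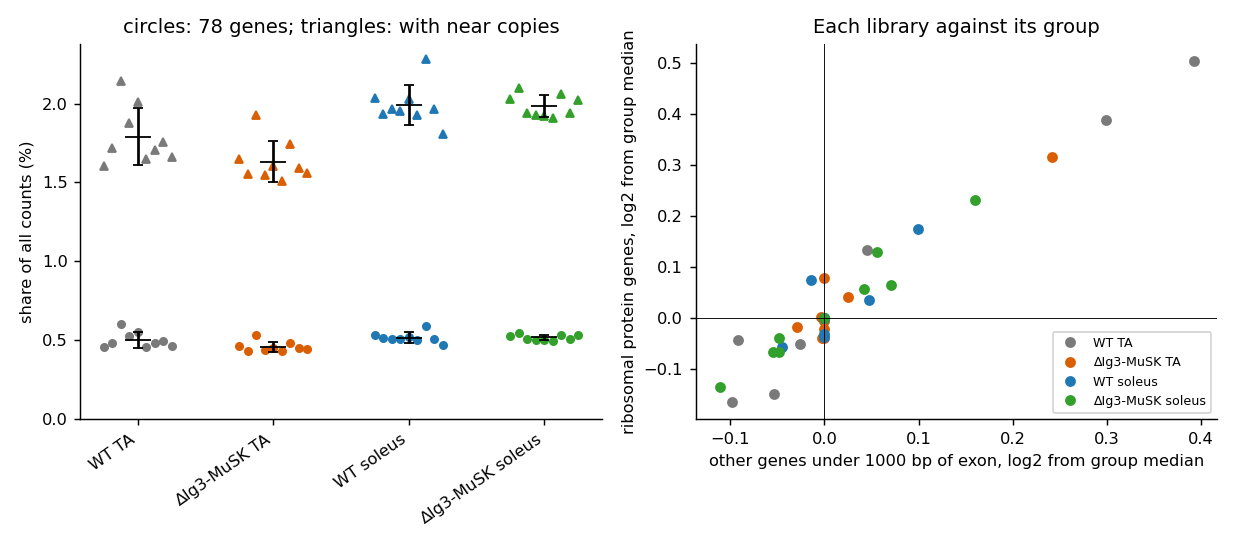
Left, share of all counts (%) on the 78 genes (circles) and with their near copies (triangles) in each of the 36 libraries by group, with the mean and SD. Right, median log2 deviation of each library from its group for the 78 genes (vertical axis) and for other genes under 1000 bases of exon (horizontal axis); WT TA replicate 5 lies farthest out at 0.50 and 0.39.

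Rpl3l was the main RPL3-type transcript in every library and was lower in the soleus than in the TA in both genotypes. In WT TA, Rpl3l ran from 410 to 516.8 CPM with a median of 461, and in WT soleus it ran from 280 to 372 with a median of 297. The WT ranges did not overlap, and the soleus level was 0.666 times the TA level (log2 change -0.59, SE 0.066, edgeR adjusted p 1.0e-07). In ∆Ig3-MuSK TA, Rpl3l ran from 381 to 460 CPM with a median of 428, and in ∆Ig3-MuSK soleus from 306 to 397 with a median of 337. The ∆Ig3-MuSK ranges overlapped at their ends, and the change was -0.31 on the log2 scale (SE 0.048, edgeR adjusted p 6.3e-06).

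Rpl3 changed in the opposite direction. In WT, its TA level ran from 10.3 to 13.3 CPM with a median of 11 and its soleus level from 12.2 to 21.3 with a median of 16.4 (log2 change 0.51, SE 0.088, edgeR adjusted p 2.7e-05). In ∆Ig3-MuSK, the TA libraries ran from 10.1 to 13.7 CPM and the soleus libraries from 13.8 to 18.1, without overlap (0.47, SE 0.065, adjusted p 1.4e-06). Rpl3 has 22 near copies, and its own share was 16.2%. With the copies added, the level rose from a median of 63.6 CPM in WT TA to 103 in WT soleus, and the log2 changes were 0.67 in WT and 0.69 in ∆Ig3-MuSK. The direction was therefore the same with either count, while the level of Rpl3 depended on the counted feature.

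As a share of Rpl3 and Rpl3l together, counted per kilobase of exon, Rpl3l made up 98.6% to 98.9% in WT TA and 98.3% to 98.8% in ∆Ig3-MuSK TA. In the soleus it made up 96.2% to 98.3% in WT and 97.2% to 98.1% in ∆Ig3-MuSK. With the near copies of Rpl3 added to Rpl3, and without division by length, the median share of Rpl3l in the TA was 88.0% for WT and 87.4% for ∆Ig3-MuSK, and in the soleus 73.7% for WT and 76.7% for ∆Ig3-MuSK. Thus Rpl3l held most of the counts under either definition, and the soleus libraries lay lower than nearly all TA libraries.

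**Figure D2:**
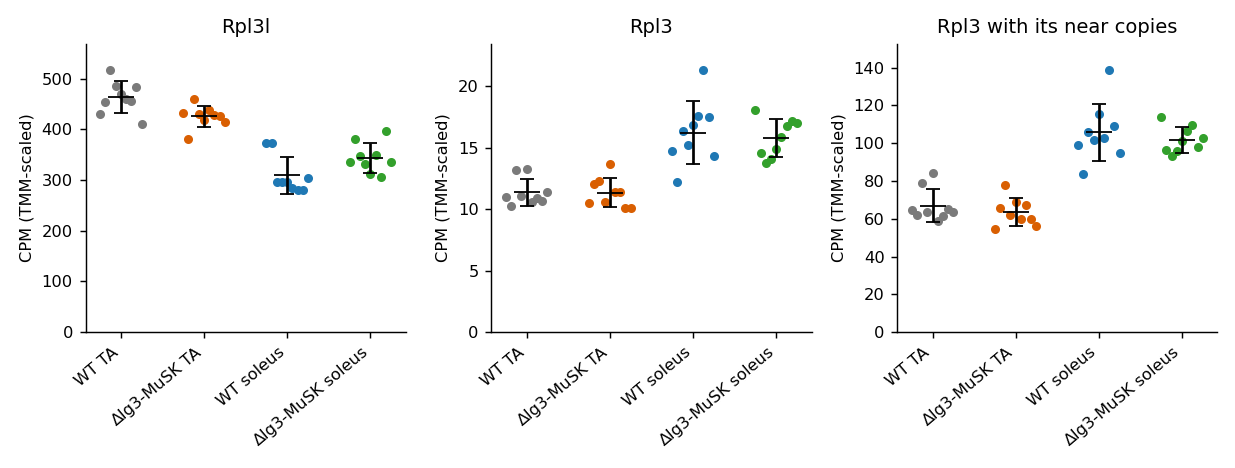
Level (CPM, TMM-scaled, linear axes from 0) of Rpl3l, Rpl3 and Rpl3 with its near copies, the latter annotated pseudogenes, in each of the 9 libraries of the 4 groups. Rpl3l is lower in soleus (280 to 372 in WT) than in TA (410 to 516.8 in WT), and Rpl3 is higher in soleus by either count.

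Rps27l is the paralog of Rps27, with an own share of 98.2%. WT TA libraries ran from 35.3 to 76.0 CPM with a median of 46.2, and WT soleus libraries from 22.1 to 27.0 with a median of 24.2 (log2 change -1.05, SE 0.128, edgeR adjusted p 3.1e-07). ∆Ig3-MuSK libraries ran from 37.5 to 56.5 CPM for the TA and from 21.8 to 29.3 for the soleus (-0.72, SE 0.072, adjusted p 1.3e-08). The muscles did not overlap in either genotype, and in WT this was the lowest log2 change among the 78 genes. Rps27 itself was at 1.80 to 3.97 CPM in the TA and 2.06 to 3.10 in the soleus and passed the test in neither genotype, with an own share of 2.14%. Most matching reads lay on Rps27rt, a protein-coding retrocopy. With the near copies added, Rps27 was also lower in the soleus, by log2 changes of -0.92 in WT (edgeR adjusted p 2.0e-07) and -0.50 in ∆Ig3-MuSK (adjusted p 2.0e-06).

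The stalk proteins Rplp0, Rplp1 and Rplp2, which recruit translation factors to the large subunit, did not move together. Rplp1 was at 209 to 361 CPM with a median of 245 in WT TA and at 137 to 178 with a median of 152 in WT soleus, without overlap (log2 change -0.74, SE 0.097, edgeR adjusted p 7.8e-07). In ∆Ig3-MuSK, the Rplp1 ranges were 192 to 268 and 145 to 196 CPM, which overlapped at their ends (-0.41, SE 0.062, adjusted p 5.8e-06). Rplp0, in contrast, had log2 changes of 0.08 in WT (SE 0.076, adjusted p 0.38) and 0.32 in ∆Ig3-MuSK (SE 0.060, adjusted p 7.2e-05). The ∆Ig3-MuSK rise of Rplp0, from a median of 329 to 413 CPM, passed the test, and the WT change did so on total counts alone among the scalings (0.27). Rplp2 did not pass the test in either genotype, with log2 changes of -0.11 in WT and 0.12 in ∆Ig3-MuSK.

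Over the whole group, WT muscles showed rises and falls in near-equal number. Of the 78 genes, 22 were higher and 21 lower in WT soleus than in WT TA, 43 in all, where a gene was called at an edgeR adjusted p under 0.05 and at least a 1.2-fold change. Over all 19437 genes tested, 57.7% were called, 30.0% were called higher and 27.6% lower, so the share called among the ribosomal protein genes was close to the background in both directions. The median log2 change was 0.07 over the 78 genes and 0.02 over all genes. Without WT TA replicates 3 and 5, 29 genes were higher and 10 lower, against 6069 and 5174 of all 19792 genes. The median of the 78 genes was then 0.17. Without WT soleus replicate 1 the split was 22 and 23, against 6068 and 5293 of all 19606 genes. The balance also depended on scaling, with 39 higher and 10 lower on total counts, against 8076 and 3348 of all 19437 genes. On total counts, the median of all genes shifted to 0.20 and that of the 78 genes to 0.26.

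In ∆Ig3-MuSK mice, most called genes were higher in the soleus. There were 43 genes higher and 8 lower in ∆Ig3-MuSK soleus than in ∆Ig3-MuSK TA, against 55.9% called among all 19910 genes tested, 27.9% higher and 28.0% lower. The median log2 change was 0.29 over the 78 genes and -0.01 over all genes. Without ∆Ig3-MuSK TA replicate 3, 44 genes were higher and 8 lower, against 5718 and 5586 of all 20049 genes. Without ∆Ig3-MuSK soleus replicate 2 the split was 41 and 8, against 5606 and 5537 of all 20006. With libraries scaled to the summed counts of the 78 genes, it was 28 and 10, against 4134 and 7268 of all 19910.

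The genotypes share no libraries in these comparisons. All 22 genes higher in WT soleus were among the 43 higher in ∆Ig3-MuSK soleus, which is 51.2% of the latter. Among all genes tested in both genotypes, those higher in both were 77.0% of the genes higher in WT and 82.0% of those higher in ∆Ig3-MuSK. The 8 genes lower in ∆Ig3-MuSK soleus were all among the 21 lower in WT soleus, 38.1% of the latter, and over all genes those lower in both were 76.8% of the genes lower in WT and 76.2% of those lower in ∆Ig3-MuSK. None of the 78 genes was called in opposite directions, as were 6 of all genes. The change was more positive in ∆Ig3-MuSK than in WT for 75 of the 78 genes, the exceptions being Rpl28, Rpl3 and Rpl9, against 49.7% of all genes. This count depended on scaling, with 67 of the 78 on total counts (28.9% of all genes), 65 with factors from genes under 1000 bases of exon (25.2%) and 30 with libraries scaled to the 78 genes (12.5%). Other protein-coding genes with under 1000 bases of exon also had a higher median change in ∆Ig3-MuSK (0.02) than in WT (-0.17). The test of the difference for the 78 genes is given with the interaction.

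**Figure D3:**
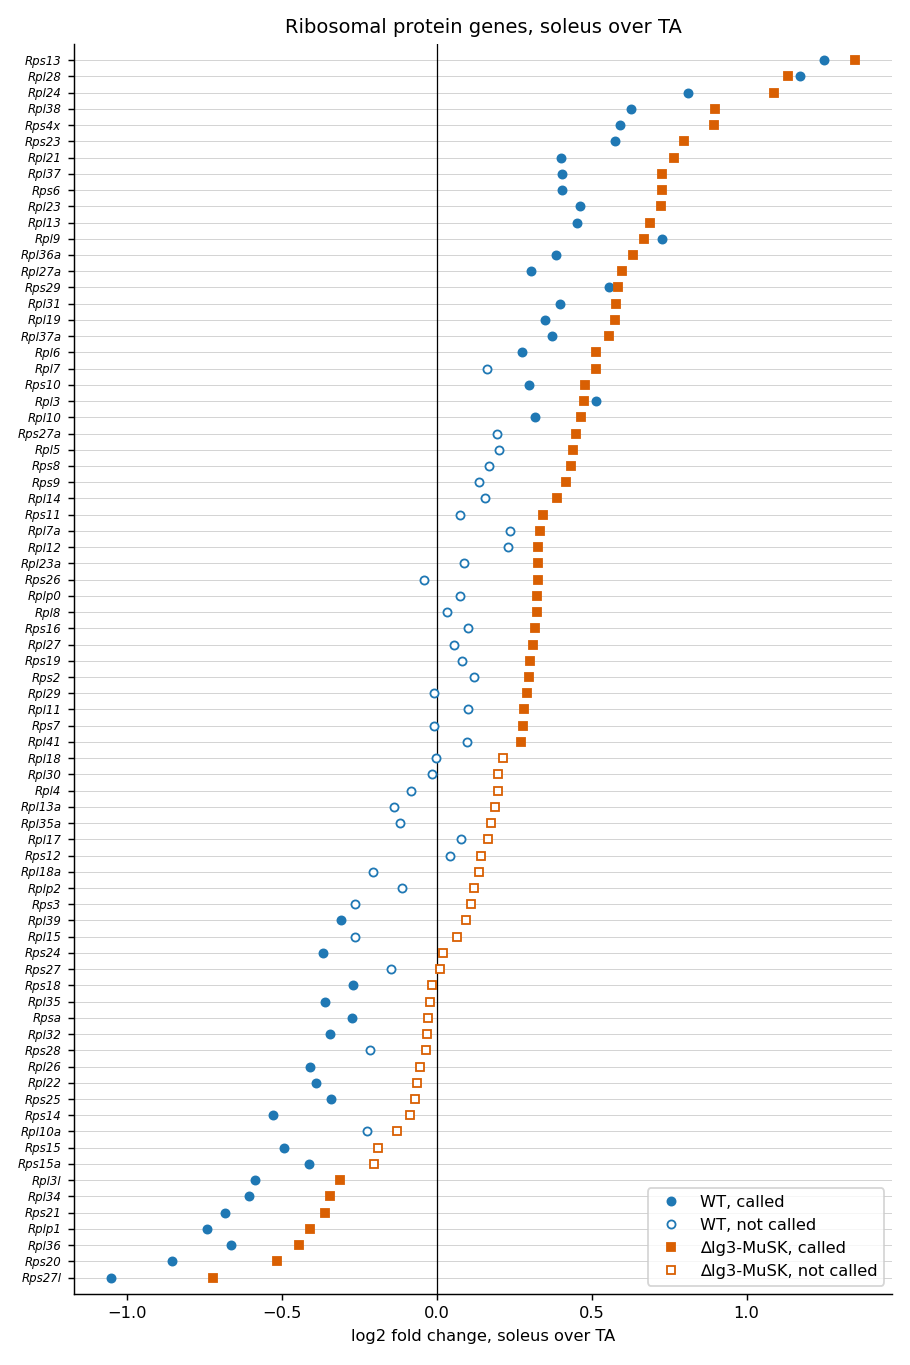
Log2 fold change, soleus over TA, of the ribosomal protein genes named on the vertical axis in WT and ∆Ig3-MuSK; filled symbols passed the test and open symbols did not. Values run from Rps27l (-1.05 in WT) to Rps13 (1.25 in WT and 1.35 in ∆Ig3-MuSK).

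Rps13, a small-subunit protein, had the largest rise of the group. Its level was 4.10 to 7.41 CPM in WT TA and 11.2 to 14.4 in WT soleus (log2 change 1.25, SE 0.096, edgeR adjusted p 2.6e-10). It was 4.05 to 5.74 CPM in ∆Ig3-MuSK TA and 9.66 to 15 in ∆Ig3-MuSK soleus (1.35, SE 0.087, adjusted p 1.2e-11). No TA library reached a soleus library. The own share of Rps13 was 3.44%, and with its near copies the changes were 0.74 and 0.95, both called.

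Rpl28, a large-subunit protein, was at 4.43 to 5.54 CPM in WT TA and 9.67 to 12.8 in WT soleus, without overlap (log2 change 1.17, SE 0.060, edgeR adjusted p 3.8e-13). The ∆Ig3-MuSK change was 1.13. Rpl24, which takes part in a bridge between the subunits, changed by 0.81 in WT and 1.09 in ∆Ig3-MuSK. Of its 1030 exon bases, Rpl24 shares 484 with Gm28037, and Rpl28 shares 183 of its 1840 with Ube2s. The own shares of Rpl28 and Rpl24 were 2.81% and 4.70%. With near copies, the WT changes were 0.20 and 0.17, and neither was called, while the ∆Ig3-MuSK changes of 0.41 and 0.56 were.

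Rps4x, the X-linked small-subunit gene, was at 35.1 to 57.7 CPM in WT TA and 62.9 to 71.2 in WT soleus, and at 35.3 to 45.8 in ∆Ig3-MuSK TA and 65.9 to 79.4 in ∆Ig3-MuSK soleus. The muscles did not overlap in either genotype. The log2 changes were 0.59 (SE 0.082, edgeR adjusted p 1.8e-06) in WT and 0.89 (SE 0.051, adjusted p 2.1e-12) in ∆Ig3-MuSK, and with near copies 0.55 and 0.85. Rps6, the small-subunit protein that S6 kinase phosphorylates downstream of mTORC1, was at 27.1 to 46.3 CPM in WT TA and 42.1 to 48.7 in WT soleus, where only the highest TA library reached the soleus range (0.41, SE 0.091, adjusted p 0.00052). In ∆Ig3-MuSK it was at 26.2 to 34.4 and 42.9 to 55.4 CPM, without overlap (0.73, SE 0.052, adjusted p 6.2e-11).

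Among the genes lower in the soleus, Rps20, a protein of the small-subunit head, was at 74.9 to 148 CPM in WT TA and 49.7 to 63.5 in WT soleus (log2 change -0.85, SE 0.109, edgeR adjusted p 5.7e-07). In ∆Ig3-MuSK the ranges were 76.7 to 116 and 53.4 to 71.1 CPM (-0.51, SE 0.070, adjusted p 1.3e-06). Neither genotype showed overlap. Rpl36, of the large subunit, changed by -0.66 in WT and -0.44 in ∆Ig3-MuSK. With near copies, Rps20 and Rpl36 were also called lower in both genotypes.

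The 3 genes with the lowest level per kilobase were all called higher in the soleus in both genotypes. Rpl9 changed by 0.73 in WT and 0.67 in ∆Ig3-MuSK, Rps29 by 0.56 and 0.59, and Rpl36a by 0.38 and 0.63 on the log2 scale. With near copies, none of the 3 was called in WT, and Rps29 (-0.15) and Rpl36a (-0.14) had the opposite sign there. In ∆Ig3-MuSK only Rpl9 was called with near copies, at 0.42.

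Adding near copies thus altered the WT comparison most. With them, 10 genes were higher and 22 lower in WT soleus, against 29.7% and 27.7% of all genes, and the median of the 78 genes was -0.10. In ∆Ig3-MuSK, 31 were higher and 6 lower, against 27.6% of all genes in each direction, and the median was 0.24. Among the 44 genes with an own share under 20%, 19 were higher and 4 lower in WT on their own counts, and 5 higher and 7 lower with near copies. Among the 10 genes with an own share of at least 80%, 0 were higher and 6 lower in WT, and 1 was higher and 3 lower in ∆Ig3-MuSK. Rpl31 was called in opposite directions by the counts with and without near copies in WT, with 0.40 on its own counts and -0.41 with its 28 near copies.

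The genes called in both genotypes and with either count were Rpl23, Rpl3, Rpl6, Rps13, Rps4x and Rps6, which were higher in the soleus, and Rpl36, Rpl3l, Rplp1, Rps20 and Rps27l, which were lower. The summed own share of a library also separated the muscles, at 27.6% to 28.5% in the 18 TA libraries and 25.7% to 26.5% in the 18 soleus libraries. Whether reads were assigned between genes and copies in the same way in both muscles was not tested.

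**Figure D4:**
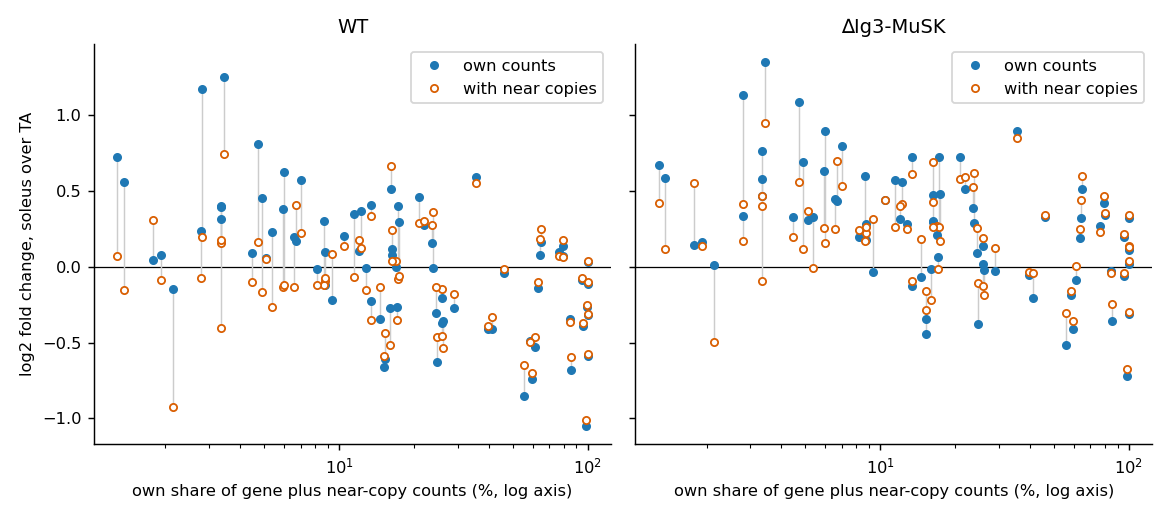
Log2 fold change, soleus over TA, against the own share of each of the 78 genes (%, log axis) in WT and ∆Ig3-MuSK, on own counts (filled) and with near copies added (open). At low own share, filled points lie higher than open ones; in WT, 19 of the 44 genes under 20% were called higher on own counts and 5 with near copies.

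By subunit, the large-subunit genes held more rises than the small-subunit genes in WT on their own counts, but not with near copies. Of 47 large-subunit genes, 16 were higher and 9 lower in WT soleus, with a median log2 change of 0.09. Of 31 small-subunit genes, 6 were higher and 12 lower, with a median of -0.04. In ∆Ig3-MuSK, 28 large-subunit genes were higher and 4 lower (median 0.32), and 15 small-subunit genes were higher and 4 lower (median 0.14). Over all genes, 30.0% were called higher and 27.6% lower in WT, and 27.9% and 28.0% in ∆Ig3-MuSK. With near copies, 5 genes of each subunit were higher and 11 lower in WT, against 29.7% and 27.7% of all genes. The medians of the large and small subunit then lay closer, at -0.09 and -0.14 in WT and 0.24 and 0.18 in ∆Ig3-MuSK. The difference between subunits was not tested.

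Between genotypes, no ribosomal protein gene passed the main test in either muscle. A single fit over the 36 libraries called 3 of the 78 genes lower in the TA, against 207 of all 20841 genes. In the TA, 0 of 78 genes were called higher or lower in ∆Ig3-MuSK than in WT by edgeR, against 0.0149% and 0.00% of 20075 genes. At an unadjusted p under 0.05, 0 genes were higher and 36 lower, against 12.2% and 12.0% of all genes, and DESeq2 also called 0. The median log2 change was -0.19, and the smallest adjusted p was that of Rpl37, a large-subunit protein with a change of -0.27 (SE 0.086, edgeR adjusted p 0.15). Other protein-coding genes with under 1000 bases of exon had a median of -0.14. Without WT TA replicates 3 and 5, the median of the 78 genes was -0.07. At an unadjusted p under 0.05, 3 of them were then lower, against 771 of all 20325 genes. Without ∆Ig3-MuSK TA replicate 3 the median was -0.23 and 64 genes were lower, against 3151 of all 20176. Without all 3 libraries it was -0.11 and 31 were lower, against 1854 of all 20250. EdgeR called 0 of the 78 genes in each case. With factors taken from genes under 1000 bases of exon the median was -0.010, and with libraries scaled to the 78 genes it was 0.0017.

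In the soleus, 0 genes were called, against 0.365% of 19439 genes called higher and 0.586% called lower. At an unadjusted p under 0.05, 16 genes were higher, against 8.48% of all genes, and Rpl9 was lower (log2 change -0.15), against 10.1% of all genes. DESeq2 and limma-voom with sample quality weights also called 0, but their smallest adjusted p among the 78 genes were 0.014 and 0.015. No gene reached the 1.2-fold minimum there, with highest log2 changes of 0.17 and 0.18. By edgeR, the median log2 change was 0.04 over other protein-coding genes with under 1000 bases of exon and 0.06 over the 78 genes. Without WT soleus replicate 1 the median was 0.08, with 28 genes higher and 0 lower at an unadjusted p under 0.05, and without ∆Ig3-MuSK soleus replicate 2 it was 0.04, with 7 higher and 2 lower. Shares over all genes in these fits with a library left out are not given here. The smallest adjusted p was that of Rpl7, a large-subunit protein, at 116 to 138 CPM in WT and 131 to 157 in ∆Ig3-MuSK (0.15, SE 0.041, edgeR adjusted p 0.066).

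**Figure D5:**
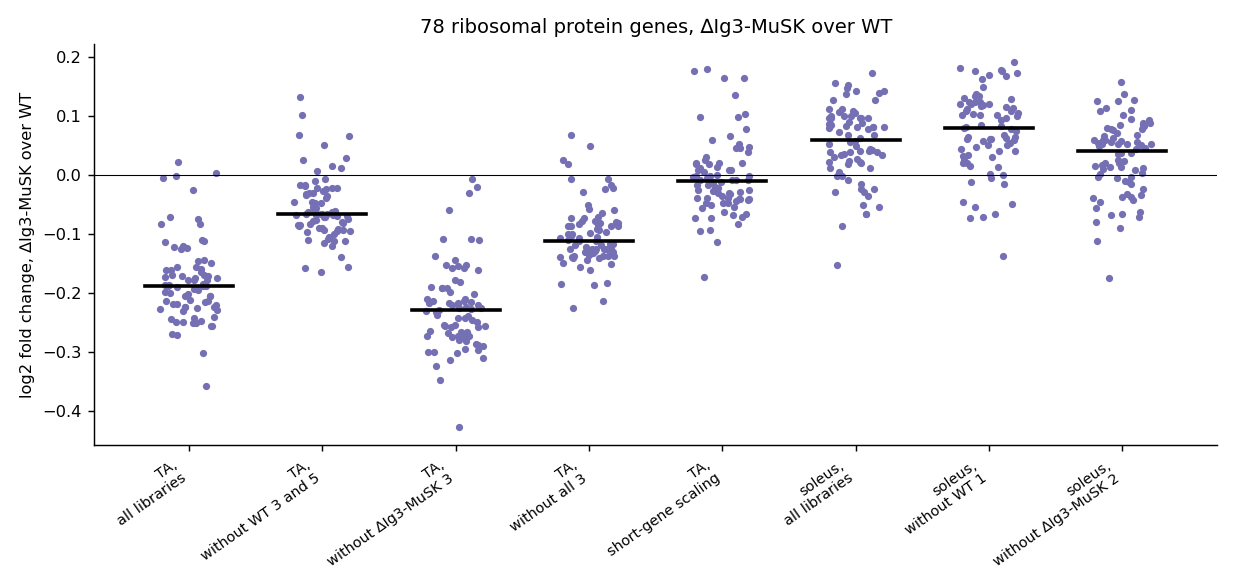
Log2 fold change, ∆Ig3-MuSK over WT, of the 78 genes in the TA and the soleus, with and without the libraries that stood apart and, for the TA, with scaling to genes under 1000 bases of exon; lines are medians. The TA median is -0.19 with all libraries, -0.07 without WT replicates 3 and 5, -0.23 without ∆Ig3-MuSK replicate 3 and -0.11 without all 3, and the soleus median is 0.06 with all libraries.

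Rpl3l differed between genotypes by a log2 change of -0.12 in the TA (SE 0.050, edgeR adjusted p 0.17) and 0.14 in the soleus (SE 0.061, adjusted p 0.21). For Rpl3 the TA change was -0.002 (edgeR adjusted p 0.99) and the soleus change -0.05 (adjusted p 0.78). For both genes the genotype ranges overlapped in each muscle. The comparisons between muscles and those between genotypes share libraries, so their values are given side by side only.

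Whether the genotype difference itself differed between the muscles was tested as an interaction over the 36 libraries, which is the same as the difference between the soleus over TA changes of the 2 genotypes. The quasi-likelihood test called 0 of the 78 genes and 0 of all 20841 genes (0.00%). At an unadjusted p under 0.05, 51 genes were more positive and 0 more negative, against 13.7% and 11.2% of all genes, with a median of 0.26. The smallest adjusted p, 0.10, was shared by Rpl15, a large-subunit protein (0.33, SE 0.10), and Rpl3l (0.28, SE 0.083). DESeq2 called 19 genes and limma-voom with sample quality weights 18, all more positive, and the quasi-likelihood test called 19 without ∆Ig3-MuSK TA replicate 3. Rpl3l was among them in each case, with adjusted p 0.039, 0.022 and 0.047. Without WT TA replicates 3 and 5 the median was 0.13 and 20 genes were more positive at an unadjusted p under 0.05, and without ∆Ig3-MuSK TA replicate 3 the median was 0.30 and 62 were. Without all 3 of these libraries it was 0.18 and 46 were, without WT soleus replicate 1 it was 0.28 and 55 were, and without ∆Ig3-MuSK soleus replicate 2 it was 0.23 and 46 were. For DESeq2, limma-voom and the fits with libraries left out, shares over all genes are not given here. The shares of the main fit do not apply to their counts. With factors from genes under 1000 bases of exon the median was 0.08, and with libraries scaled to the 78 genes -0.026.

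Other genes of translation were counted in the same way between muscles, and the shares of all genes called stand above for each comparison. Of 6 ribosomal protein genes whose symbols fell outside the rule, 1 was higher and 3 lower in WT soleus, and 2 higher and 2 lower in ∆Ig3-MuSK soleus. Rps3a1, of the small subunit, rose (0.36 in WT and 0.64 in ∆Ig3-MuSK), and Rpl36al, a retrogene paralog of Rpl36a, fell (-0.80 and -0.46). Of 7 elongation factor genes, 5 were higher in each genotype and 1, Eif5a, was lower in WT (-0.33). Eef1g, a subunit of the factor that recharges eEF1A, was at 66.8 to 85.1 CPM in WT TA and 100.5 to 111.4 in WT soleus (0.55, SE 0.056, edgeR adjusted p 2.5e-08).

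Of 14 eIF3 subunit genes, 6 were higher and 3 lower in WT soleus and 8 higher and 1 lower in ∆Ig3-MuSK soleus. Eif3c, a core subunit, was at 67.7 to 87.2 CPM in WT TA and 117.7 to 142.1 in WT soleus (0.70, SE 0.053, edgeR adjusted p 2.7e-10), whereas Eif3i fell (-0.62 in WT and -0.35 in ∆Ig3-MuSK). Of 18 other initiation factor genes, 2 were higher and 6 lower in WT and 4 higher and 4 lower in ∆Ig3-MuSK. Eif5b, which joins the subunits, rose in both (0.65 and 0.80), Eif1ax fell in WT (-0.54) and Eif4g3 fell in ∆Ig3-MuSK (-0.78). Of 5 genes for proteins that bind the ribosome, 2 were higher and 1 lower in WT and 4 higher and 0 lower in ∆Ig3-MuSK, where Btf3 of the nascent chain complex rose by 0.55. Rack1, of the small subunit, fell in WT (-0.39), and Naca, the partner of Btf3, rose (0.77).

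Of 34 ribosome biogenesis genes, 5 were higher and 4 lower in WT soleus and 6 higher and 1 lower in ∆Ig3-MuSK soleus. The nucleolar proteins Ncl (0.69 in WT) and Npm1 (0.76 in ∆Ig3-MuSK) rose, and Wdr12 (-0.39 in WT) and Gnl3 (-0.34 in ∆Ig3-MuSK) fell. Of 11 RNA polymerase I genes, 1 was higher and 3 lower in each genotype. Polr1a, its largest subunit, rose (0.95 in WT and 0.79 in ∆Ig3-MuSK), and the promoter factors Taf1d (-0.95 in WT) and Taf1a (-0.84 in ∆Ig3-MuSK) fell. Of 13 genes of mTOR signaling and control of pyrimidine-run mRNAs, 3 were higher and 3 lower in WT and 2 higher and 4 lower in ∆Ig3-MuSK. Mtor rose (0.79 and 0.49), and Maf1, a repressor of RNA polymerase III, fell (-0.61 and -0.38). In these lists, 0 genes were called between genotypes in either muscle.

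The 78 mitochondrial ribosomal protein genes, whose products form the separate ribosome of mitochondria, also had a higher median change in ∆Ig3-MuSK than in WT. In WT soleus 3 were higher and 29 lower, with a median log2 change of -0.18, and in ∆Ig3-MuSK soleus 18 were higher and 12 lower, with a median of 0.04. Mrpl23 had the smallest adjusted p among those that fell (-0.73 in WT, SE 0.089, edgeR adjusted p 2.7e-07, and -0.58 in ∆Ig3-MuSK), and Mrpl43 among those that rose (0.33 and 0.44). In the interaction, edgeR called 0 of these genes, and 60 were more positive and 0 more negative at an unadjusted p under 0.05, against the 13.7% and 11.2% of all genes given above, with a median of 0.24. Between genotypes in the TA, 0 were called, and 60 were lower and 0 higher at an unadjusted p under 0.05, against 12.0% and 12.2% of all genes, with a median of -0.20. Like the cytosolic genes, many of these have short transcripts, and the part of the libraries that stood apart in this was not tested.

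Markers of other cell types also differed between the muscles. All 4 adipocyte genes were higher in soleus in both genotypes, with a summed level of 11 to 70.2 CPM in WT TA and 47.7 to 261 in WT soleus, and of 9.73 to 65.9 in ∆Ig3-MuSK TA and 18.3 to 231 in ∆Ig3-MuSK soleus. Endothelial genes were higher in 4 of 4 in WT and 3 of 4 in ∆Ig3-MuSK, satellite cell genes in 2 and 3 of 3, and erythroid genes in 2 and 4 of 4. Schwann cell genes were higher in 1 and 2 of 4, fibroblast genes in 2 and 0 of 4 with 1 lower in ∆Ig3-MuSK, macrophage genes in 2 and 1 of 4, and smooth muscle genes in 2 and 0 of 3. Fast-fiber genes were lower in 3 of 4 in each genotype, with a summed level of 35928 to 54801 CPM in the TA and 10035 to 24852 in the soleus. No marker was at 0 in any library, and the part of these cells in the ribosomal protein values was not tested. Between genotypes, 1 marker was called, Acta2 of smooth muscle, which was lower in ∆Ig3-MuSK soleus (log2 change -0.38, SE 0.093, edgeR adjusted p 0.0496).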

How the data were processed

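RNA from 36 whole muscles was made into libraries without strand information. The authors trimmed reads with Trimmomatic, aligned them with GSNAP to GRCm38/mm10 and assigned them to genes with HTSeq. The deposited values are whole-number counts without normalization, in 1 table per muscle. Tool versions, the counting mode and the annotation release are not given in the sources used here. Without strand, reads of overlapping genes cannot be told apart, and 37 of the 78 genes share exon bases with another gene. Symbols matched 51633 of 51912 gene IDs (GENCODE M21), and columns of other samples numbered 0. No libraries held identical values.

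Groups came from the labels. Labels do not say whether a number given to both a TA and a soleus library marks 1 animal, so p-values measure the spread between these samples. The genotype tests followed the limits of the study's methods. In R 4.3.3, edgeR 4.0.16 kept genes with filterByExpr (minimum count 10, minimum total 15), scaled counts with TMM factors and fitted glmQLFit and glmQLFTest on the 18 libraries of a comparison, or all 36 for the interaction, without covariates. Calls required a Benjamini-Hochberg adjusted p under 0.05 over all genes tested and, except for the interaction, at least 1.2-fold. Near copies were found with blastn 2.17.0 on GENCODE M21 transcripts, and a protein-coding gene counted as a copy only where all its transcripts matched. The procedure was run on simulated counts in which few genes changed, equally up and down, with the same dispersion for every gene. The muscles differed in far more genes, so this run does not check the scaling between them.

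The genes and lists were chosen with earlier results of these data known. Named genes were Rpl3, Rpl3l and other paralogs ending in l, the 4 genes called in each direction with the smallest adjusted p in each comparison, the 3 highest and 3 lowest per kilobase, the stalk proteins, Rps6 and, from each other list, the gene with the smallest adjusted p in each direction. Rpl23, Rpl6, Rpl31, Rps27, Rpl37, Rpl7 and Rpl15 were named outside this rule, with values in view, and some results of single genes are not reported here. The alternatives included DESeq2 1.42.0, quality-weighted limma-voom from limma 3.58.1, other scalings and filters, 1 fit to all 36 libraries, the replicate block, near copies added and libraries left out.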

Additional observations from a re-analysis of the deposited data

Results flagged for a closer look

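Of 72 groups of 9 libraries tested, over the levels of named ribosomal protein genes, the share of counts on the 78 genes and the share of Rpl3l, 8 had a highest library whose gap to the next exceeded Dixon's 95% critical value, where chance gives about 1 in 20. They came from 3 libraries, in each of which the ribosomal protein genes and other short genes lay above the group as a whole. In WT TA replicate 5, Rpl24 was at 9.42 CPM, with the next library at 6.62, and Rpl9 at 5.41, with the next at 3.57. In ∆Ig3-MuSK TA replicate 3, Rps20 was at 115.9 CPM (next 95.3), Rplp0 at 410.9 (next 354.3), Rpl9 at 4.16 (next 3.11) and Rps6 at 34.4 (next 29.8). In WT soleus replicate 1, Rpl24 was at 12.2 CPM (next 11) and Rpl36 at 22.4 (next 19.3). Without WT soleus replicate 1 the WT comparison of muscles had 22 genes higher and 23 lower, against 6068 and 5293 of all 19606.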

How the results depend on the processing

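Of 174 values of counts, medians and shares under an alternative, 158 were labeled unchanged. Counts were judged by the total called, so a changed split of higher and lower could still pass as unchanged. Medians were judged against the spread between replicates (SD 0.15 on the log2 scale), and shares against their own spread within groups. Of 1389 values of the single genes named by rule, which leaves out Rpl31, 1370 kept their call status. A further 6 lost and 11 gained a call, and 2 turned, both in WT with near copies (Rps29 -0.15 and Rpl36a -0.14). The sign was not compared for genes that had no call under either setting. The WT median between muscles was 0.26 on total counts, where all genes shifted to 0.20, 0.22 with libraries scaled to the 78 genes and -0.10 with near copies. WT splits were 30 higher and 10 lower with libraries scaled to the 78 genes, 29 and 12 with factors from short genes, and 25 and 13 with quality-weighted limma-voom. Over all 19437 genes, these splits were 7032 and 3675, 6948 and 4006, and 6001 and 5424, in the same order. The TA genotype median was 0.0017 with libraries scaled to the 78 genes and -0.010 with factors from short genes, where all genes shifted to 0.16 and 0.15. For the TA genotype test, a single fit over the 36 libraries called 3 of the 78 genes lower, against 207 of all 20841 genes. The interaction had 19 calls with DESeq2, 18 with limma-voom and 19 without ∆Ig3-MuSK TA replicate 3, with shares over all genes not given here. Its median was 0.11 on total counts, -0.026 with libraries scaled to the 78 genes and 0.078 with factors from short genes. The cause of these moves was not tested. The share of Rpl3l was 98.3% over all libraries, 96.8% without division by length and 83.2% with near copies. The 78 genes held 0.504% of counts, 0.767% of those on nuclear protein-coding genes and 0.816% without the 50 genes of highest mean count. Near copies, factors from short genes and libraries left out were chosen after seeing the data.

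As a check of pairing, deviations from group means of libraries with the same label number correlated at 0.02 to 0.21 over 8 WT pairs of TA and soleus, with 4 over 0.1, and at 0.06 to 0.47 over 8 ∆Ig3-MuSK pairs, with 7 over 0.1. The median of these pairs was 0.11 in WT and 0.25 in ∆Ig3-MuSK, against -0.01 and -0.03 for other TA and soleus pairs. As a random effect, the correlation within a label number was estimated at 0.047 in WT and 0.26 in ∆Ig3-MuSK. Whether a label number marks the same animal was not settled, and it entered only as an alternative. Across genotypes, replicates with the same title number correlated at -0.24 to 0.64 in the TA and -0.39 to 0.48 in the soleus. The title numbers were not taken to pair the samples. TA and soleus libraries correlated best with their own label number in 4 and 3 of 8 cases in WT and 6 and 6 of 8 in ∆Ig3-MuSK. With the label number as a replicate block, 45 genes were called in WT (22 higher and 23 lower). In ∆Ig3-MuSK, 51 were called (43 and 8). Over all genes, these splits were 5918 and 5290 of 19437 in WT and 5608 and 5539 of 19910 in ∆Ig3-MuSK. As a random effect, 41 and 51 of the 78 genes were called. Over all genes, 5939 were then higher and 5296 lower in WT, and 5651 and 5711 in ∆Ig3-MuSK. With the title's replicate number as a block, 0 were called between genotypes in the TA (median -0.17) and 0 in the soleus, and the random-effect fit called 0 for the interaction.

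Depth limits the genes whose reads lie mostly on near copies, such as Rps29, with 37 to 91 counts per library. The deposited counts cannot show how reads that match a gene and its copies equally were treated.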
